A study of Rattus norvegicus with 6 samples.

Results

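The genes described here are *Apoe*, *Apoc1*, *Apoc4* and *Apoc2*, which lie side by side in 1 apolipoprotein cluster, together with *Apod*, *Clu* and *Lpl*. They were taken by symbol from the deposited expression tables and are 7 of 17315 genes listed there. The set was selected on *Apoc1* and *Apoc4* being higher after *Derl1* knockdown, so the difference between the siRNA groups is described for all 7 genes and no p is given for it. The cells were HCN cells, a line of neural stem cells (NSCs) from the hippocampus of adult rats. siControl NSCs received a Stealth control duplex and siDerl1 NSCs a Stealth duplex against *Derl1*, which encodes Derlin-1, a protein of the endoplasmic reticulum that takes part in the removal of misfolded proteins. Both groups were reverse transfected and then kept for 2 days with BMP4, a growth factor that brings these cells into quiescence, before poly(A) RNA was sequenced. Each group had 3 samples, with the numbers 1, 2 and 3 in their titles. The model is limited to 1 cell line, 1 knockdown reagent and 1 time point, and the controls shared the transfection and the BMP4. Nothing in the labels says that the samples came from separate cultures, so the p-values measure the spread between these samples, which may be technical.

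Apolipoproteins are the protein part of lipoprotein particles, which carry cholesterol, phospholipids and triglycerides between cells. In the brain the particles are made mainly by glial cells, which secrete ApoE, load it with cholesterol through ABC transporters and supply it to neighbouring cells through lipoprotein receptors. The smaller C apolipoproteins exchange between particles and tune lipase activity: ApoC-II is the cofactor of lipoprotein lipase, whereas ApoC-I inhibits lipid transfer and the uptake of particles.

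Levels are given as TPM, the share of each transcript among all transcripts of a sample, which is corrected for transcript length, scaled to the same total in each sample and can therefore be compared between genes. TPM keeps no sequencing depth, so the depth is unknown and no counting interval is given. Differences are given as siDerl1 minus siControl on the log2(TPM + 1) scale, which understates changes of genes near 1 TPM. In bulk RNA, fewer cells of a type and less RNA per cell cannot be told apart.

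*Derl1*, the targeted gene, stood at 121.59, 131.92 and 127.64 TPM in siControl samples 1, 2 and 3 and at 44.86, 70.81 and 73.98 TPM in siDerl1 samples 1, 2 and 3. It was lower in 3 of 3 pairs of equal number, by −1.03 ± 0.18 (SE) on the log2(TPM + 1) scale (adjusted p = 0.497 from limma over all genes, and 0.00884 with the sample number as a block). With the block the adjusted p was 0.229 without an intensity trend and 0.104 without the filter on low values. Stem cell markers were present in every sample, with *Sox2* at 445 to 565 TPM and *Nes* at 99.41 to 137.1 TPM, but *Prom1* was listed at 0 in all 6. Of 7 such markers fitted, the groups did not overlap for 1 (*Nes*, siDerl1 lower), beside 8.52% of all genes. *Nes* averaged 125 ± 12.2 TPM in siControl and 104 ± 6.22 TPM in siDerl1 (SD, n = 3 each; adjusted p = 0.704, limma). The oligodendrocyte lineage gene *Sox10* was also abundant, at 541 to 787 TPM. Both samples numbered 1 stood apart from the other 4 along the first principal component, which held 55.7% of the variance.

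The cluster lies on chromosome 1 in the order *Apoc2*, *Apoc4*, *Apoc1*, *Apoe*, with all 4 genes on the minus strand. The stretches of 250 bases ahead of 1 RefSeq start site of each gene are shown because these neighbours are the genes whose levels are compared first. They come from RefSeq on the GRCr8 assembly and not from the rn6 assembly to which the reads were mapped. Of the 7 genes, 5 had a promoter entry (*Apoc2*, *Apoc4*, *Apoc1*, *Apoe* and *Apod*), with 2 start sites for *Apoc1* and 3 for *Apoe*. Each sequence is written 5′ to 3′ on the gene's strand, ends at the base before the start site, and has motif matches in capitals.
Apoe, chr1:88485817-88486066, minus strand: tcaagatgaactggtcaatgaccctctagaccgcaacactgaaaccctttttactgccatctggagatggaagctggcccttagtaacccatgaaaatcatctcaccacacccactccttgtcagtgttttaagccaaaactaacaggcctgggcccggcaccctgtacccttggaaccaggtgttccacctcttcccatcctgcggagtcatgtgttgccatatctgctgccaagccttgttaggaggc
Apoc1, chr1:88478306-88478555, minus strand: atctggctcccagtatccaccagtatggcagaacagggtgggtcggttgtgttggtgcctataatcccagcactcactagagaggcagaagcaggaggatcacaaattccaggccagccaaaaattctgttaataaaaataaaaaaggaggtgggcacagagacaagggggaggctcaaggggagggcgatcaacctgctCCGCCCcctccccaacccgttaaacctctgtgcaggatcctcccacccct
Apoc4, chr1:88467910-88468159, minus strand: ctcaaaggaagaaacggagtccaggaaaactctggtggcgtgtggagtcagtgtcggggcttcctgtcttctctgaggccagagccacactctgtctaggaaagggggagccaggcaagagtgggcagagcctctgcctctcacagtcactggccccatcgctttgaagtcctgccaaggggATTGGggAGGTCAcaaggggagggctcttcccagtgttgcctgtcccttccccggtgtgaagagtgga
Apoc2, chr1:88462366-88462615, minus strand: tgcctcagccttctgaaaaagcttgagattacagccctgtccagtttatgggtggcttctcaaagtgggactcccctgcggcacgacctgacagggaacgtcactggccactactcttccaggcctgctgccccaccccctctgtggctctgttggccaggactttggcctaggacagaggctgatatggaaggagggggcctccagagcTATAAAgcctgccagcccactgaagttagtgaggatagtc

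Motifs were searched on both strands, and no matches to different motifs overlapped. The *Apoc4* stretch held a CCAAT box (CCAAT) on the opposite strand, first base at −68 from the start site, and a nuclear receptor half-site (AGGTCA) at −61. The CCAAT box was found in 34% and the half-site in 14.1% of all 33469 rat promoter stretches of the same length. *Apoc1* held 1 GC box (GGGCGG) on the opposite strand at −50, a motif found in 30.5% of the stretches. *Apoc2* had a TATA box (TATAAA) at −40, which 12.9% of the stretches had. The *Apoe* stretch shown had no match to the 7 motifs searched, which also included the STAT site TTCNNNGAA (7.67% of the stretches), the AP-1 site TGAGTCA (4.05%) and the E-box CACGTG (5.59%). The stretches of the other *Apoe* start sites overlap each other and hold the same pair of GC boxes, and one of them also had a CCAAT box on the opposite strand at −176. The stretch of the other *Apoc1* start site overlaps the one shown, holds the same GC box and had a CCAAT box on the opposite strand at −12. *Apoc4*, *Apoc1* and *Apoe* thus shared no motif in the stretches shown, but each had a CCAAT box ahead of at least 1 start site when all start sites were counted.

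*Apoe* was by far the most abundant gene of the cluster in every sample. It was listed at 72.91, 113.6 and 151.92 TPM in siControl samples 1, 2 and 3 and at 205.55, 162.09 and 206.22 TPM in siDerl1 samples 1, 2 and 3. Every siDerl1 sample lay above every siControl sample, and the siControl samples differed among themselves by about as much as the groups. The means were 113 ± 39.5 and 191 ± 25.3 TPM (SD, n = 3 each), a ratio of 1.70 and a difference of 0.81 ± 0.25 (SE) on the log2(TPM + 1) scale. Within pairs of equal number the difference was 1.48 for number 1, against 0.51 for number 2 and 0.44 for number 3.

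*Apoc1*, which encodes the inhibitor ApoC-I, was near 0 in siControl NSCs. It was listed at 0, 0.8 and 0.98 TPM in siControl samples 1, 2 and 3 and at 3.2, 4.18 and 4.09 TPM in siDerl1 samples 1, 2 and 3. No siControl sample reached 1 TPM and no siDerl1 sample was under 3 TPM. The difference was 1.65 ± 0.31 (SE) on the log2(TPM + 1) scale, with 2.07, 1.52 and 1.36 in pairs 1, 2 and 3. *Apoc1* reached a mean of 1 TPM over the 6 samples, the minimum for entering the fit, only through its siDerl1 samples.

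*Apoc4*, a less studied apolipoprotein of triglyceride-rich particles, was listed at 1.38, 2.42 and 0 TPM in siControl samples 1, 2 and 3. In siDerl1 samples 1, 2 and 3 it was at 4.03, 6.93 and 4.63 TPM. The groups did not overlap, and the value of 0 in siControl sample 3 widened the gap. The difference was 1.60 ± 0.45 (SE) on the log2(TPM + 1) scale and ran over pairs 1, 2 and 3 as 1.08, 1.21 and 2.49. Without siControl sample 3 it was 1.09. With a pseudocount of 0.1 in place of 1 the difference was 2.84 for *Apoc4* and 3.08 for *Apoc1*, so the size of both changes is poorly fixed at these levels.

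*Apoc2*, which encodes the cofactor of lipoprotein lipase, was listed at 0, 0 and 0.67 TPM in siControl samples 1, 2 and 3 and at 0.72, 0.57 and 0 TPM in siDerl1 samples 1, 2 and 3. Its mean over all samples was 0.327 TPM, under the minimum of 1, and it was not fitted. Each group held a sample at 0, and the groups overlapped. Samples 1 and 2 were higher in siDerl1 and sample 3 was lower.

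The 4 cluster genes summed to 74.3, 117 and 154 TPM in siControl samples 1, 2 and 3 and to 213.5, 174 and 215 TPM in siDerl1 samples 1, 2 and 3. *Apoe* made up between 93.3% and 98.9% of that sum, so the C genes added little to the amount of cluster RNA in either group.

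*Apod*, an apolipoprotein of the lipocalin family that lies on chromosome 11, was the next most abundant of the 7 genes. It was listed at 97.12, 81.86 and 50.73 TPM in siControl samples 1, 2 and 3 and at 81.47, 81.99 and 62.29 TPM in siDerl1 samples 1, 2 and 3. The groups overlapped, with means of 76.6 ± 23.6 and 75.3 ± 11.2 TPM (SD, n = 3 each) and a difference of 0.01 ± 0.23 (SE) on the log2(TPM + 1) scale. The pairs did not share a direction, at −0.25, 0.00 and 0.29.

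*Clu*, which encodes clusterin (ApoJ), a secreted chaperone, was low in these cells. It was listed at 3.2, 0.8 and 0.74 TPM in siControl samples 1, 2 and 3 and at 5.49, 1.46 and 0.77 TPM in siDerl1 samples 1, 2 and 3. The groups overlapped, and both samples numbered 1 were above the other 4. Each pair had the higher value in siDerl1, by 0.63, 0.45 and 0.02, and the difference was 0.37 ± 0.55 (SE) on the log2(TPM + 1) scale. Without siDerl1 sample 1 the difference was −0.18, and without siControl sample 1 it was 0.78.

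*Lpl*, which encodes lipoprotein lipase, the enzyme that hydrolyses triglycerides in lipoproteins, was listed at 1.48, 4.25 and 5.26 TPM in siControl samples 1, 2 and 3. In siDerl1 samples 1, 2 and 3 it was at 0.79, 4.46 and 2.1 TPM. The groups overlapped, and both samples numbered 1 had the lowest values. The difference was −0.48 ± 0.49 (SE) on the log2(TPM + 1) scale, with pair values of −0.47, 0.06 and −1.01.

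**Figure D1:**
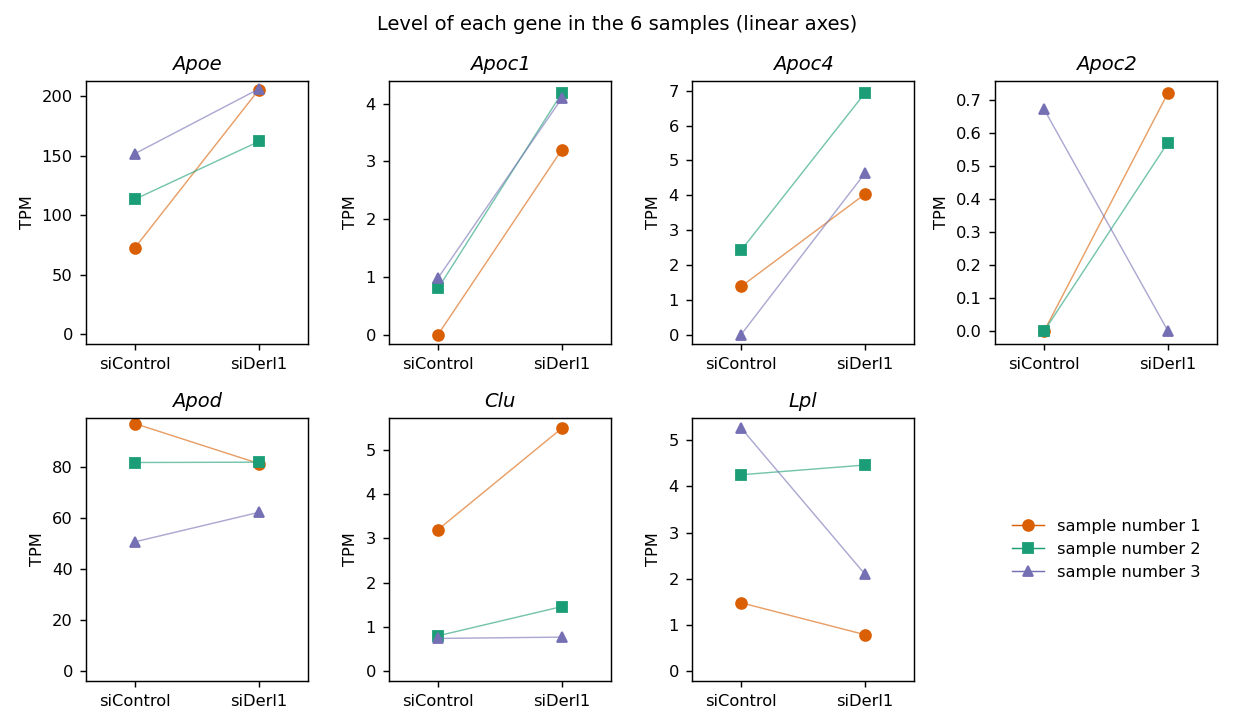
Level in TPM (vertical axis, linear, with its own range for each gene) of the 7 genes in the siControl and siDerl1 samples. Points are single samples, and lines join samples of equal number. For *Apoe*, *Apoc1* and *Apoc4* every siDerl1 sample lies above every siControl sample, whereas the groups overlap for *Apoc2*, *Apod*, *Clu* and *Lpl*.

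Of the 6 genes fitted, 3 had groups that did not overlap with siDerl1 higher (*Apoe*, *Apoc1* and *Apoc4*) and 0 had siDerl1 lower. Over all 10331 genes fitted, the groups did not overlap in 5.09% with siDerl1 higher and in 8.52% with siDerl1 lower. Since the set was selected on this comparison, these counts are a description. Groups that do not overlap stay apart when samples are left out, so the count gives no information on stability. With both samples numbered 1 left out, 16.3% of all genes had non-overlapping groups with siDerl1 higher. The differences in numbers 2 and 3 alone were 0.47 for *Apoe*, 1.44 for *Apoc1* and 1.85 for *Apoc4* on the log2(TPM + 1) scale.

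Ordered by level in siControl NSCs, *Apoe* and *Apod* came first and overlapped each other, followed by *Lpl*, *Clu*, *Apoc4*, *Apoc1* and *Apoc2*, each of which overlapped the next. In siDerl1 NSCs, *Apoe* lay above *Apod* in every sample, without overlap. *Apoc4* and *Apoc1* then stood ahead of *Clu* and *Lpl* by mean level, with ranges that overlapped their neighbours, and *Apoc2* lay below all of the others. The level of *Apoe* relative to *Apod* was 0.751, 1.39 and 2.99 in siControl samples 1, 2 and 3 and 2.52, 1.98 and 3.31 in siDerl1 samples 1, 2 and 3, and these ratios overlapped between groups.

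The genes flanking the cluster differed little between the siRNA groups. The flanking genes were the 10 nearest protein-coding genes on each side that had expression values. Genes without an entry were passed over. Of these 20 genes, 13 were fitted, with 7 higher and 6 lower in siDerl1. The differences ran from −0.07 to 0.18 on the log2(TPM + 1) scale. Their median difference was 0.01, beside −0.02 for all genes fitted. None of the 13 passed the test of siDerl1 against siControl (smallest adjusted p = 0.817, limma; 0 at an unadjusted p under 0.05). *Clptm1*, next to *Apoc2*, encodes a membrane protein of the secretory pathway and was at 206.32, 226.13 and 229.15 TPM in siControl samples 1, 2 and 3 and at 206.09, 224.76 and 216.46 TPM in siDerl1 samples 1, 2 and 3. *Tomm40*, next to *Apoe*, encodes the import pore of the mitochondrial outer membrane and averaged 145 ± 17.0 and 141 ± 14.9 TPM (SD, n = 3 each), a difference of −0.03 ± 0.11 (SE) on the log2(TPM + 1) scale. The groups overlapped for both of these genes. They did not overlap for 1 of the 13, *Ppp1r37*, named for this after its values were seen, at 62.3 ± 1.15 and 64.8 ± 1.26 TPM (SD, n = 3 each).

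**Figure D2:**
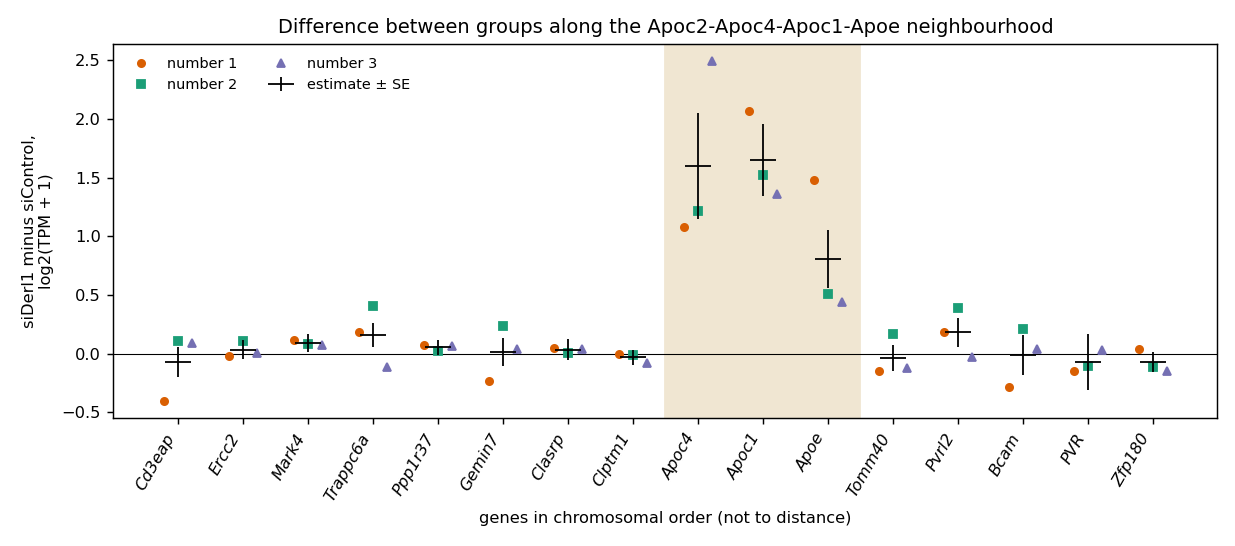
Difference between siDerl1 and siControl on the log2(TPM + 1) scale (vertical axis) for the fitted genes around the cluster, in chromosomal order and not to distance (horizontal axis), with *Apoc2* left out because it was not fitted. Bars are estimates ± SE, coloured points are pairs of equal sample number, and shading marks the cluster. The estimates for *Apoc4*, *Apoc1* and *Apoe* are 1.60, 1.65 and 0.81, and those of the flanking genes lie between −0.07 and 0.18.

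Genes that receive, load or process lipoproteins were read from lists of the same pathway. With the flanking genes, the lists held 73 genes in the tables, of which 48 were fitted. By direction, 27 were higher and 21 lower in siDerl1, with a median difference of 0.01 on the log2(TPM + 1) scale. None passed an adjusted p of 0.05 in limma (0 higher and 0 lower, smallest adjusted p = 0.704), and at an unadjusted p under 0.05 there were 0 higher and 2 lower. Over all genes fitted, 0% passed the adjusted test and 6.7% had an unadjusted p under 0.05. With the sample number as a block, 0 of the 48 passed (smallest adjusted p = 0.113, limma), beside 0.552% of all genes. At an unadjusted p under 0.05 with the block, 3 were higher and 3 lower, beside 707 and 917 of all 10331 genes.

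Among other apolipoproteins, 3 of 12 genes were fitted, and the hepatic apolipoproteins *Apoa2* and *Apoc3* were listed at 0 in every sample. *Apoa5*, a regulator of plasma triglycerides that was too low to be fitted, was at 0, 0.83 and 0.38 TPM in siControl samples 1, 2 and 3 and at 1.25, 1.19 and 1.06 TPM in siDerl1 samples 1, 2 and 3, without overlap. *Apom*, an apolipoprotein of high-density particles, was at 2.69, 3.25 and 2.53 TPM in siControl samples 1, 2 and 3 and at 2.36, 1.84 and 1.5 TPM in siDerl1 samples 1, 2 and 3. Its groups did not overlap, with siDerl1 lower, but it did not pass the test (adjusted p = 0.764, limma). Both were chosen after their values were seen. Among lipoprotein receptors and their partners, 9 of 13 genes were fitted, 6 higher and 3 lower, with a median of 0.05. *Lrpap1*, a chaperone of lipoprotein receptors, averaged 111 ± 18.4 and 106 ± 17.6 TPM in siControl and siDerl1 (SD, n = 3 each).

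Both pathway genes with an unadjusted p under 0.05 belonged to lipidation and efflux, where 13 of 14 genes were fitted, 7 higher and 6 lower, with a median of 0.00. *Abcg1*, a transporter that exports cholesterol to lipoproteins, was at 22.63, 19.54 and 22.94 TPM in siControl samples 1, 2 and 3 and at 17.19, 15.73 and 17.78 TPM in siDerl1 samples 1, 2 and 3. Its groups did not overlap, with a difference of −0.34 ± 0.11 (SE) on the log2(TPM + 1) scale (adjusted p = 0.704, limma). *Rxra*, a nuclear receptor that pairs with the liver X receptors, averaged 74.0 ± 10.4 and 61.5 ± 3.79 TPM (SD, n = 3 each; adjusted p = 0.740, limma). In this list 2 fitted genes had non-overlapping groups with siDerl1 lower (*Abcg1* and *Rxra*), beside 8.52% of all genes. Another 2 did with siDerl1 higher (*Abca5* and *Abca2*), beside 5.09%. *Abca5* averaged 5.18 and 6.81 TPM and *Abca2* 33.2 and 37.3 TPM in siControl and siDerl1. Both were named after their values were seen. *Abca1*, the transporter that loads ApoE with cholesterol, was level, at 58.6 ± 4.06 and 59.1 ± 9.76 TPM, and was named after its values were seen. *Nr1h2*, the liver X receptor of most tissues, averaged 114 ± 3.68 and 118 ± 0.61 TPM.

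Lipases and their regulators had 10 of 14 genes fitted, 5 higher and 5 lower, with a median of 0.03 on the log2(TPM + 1) scale. *Pnpla2*, the lipase of intracellular fat droplets, averaged 76.5 ± 3.29 and 84.8 ± 8.06 TPM in siControl and siDerl1 (SD, n = 3 each), with groups that overlapped. *Gpihbp1*, which anchors lipoprotein lipase on endothelial cells, was listed at 0 in every sample.

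**Figure D3:**
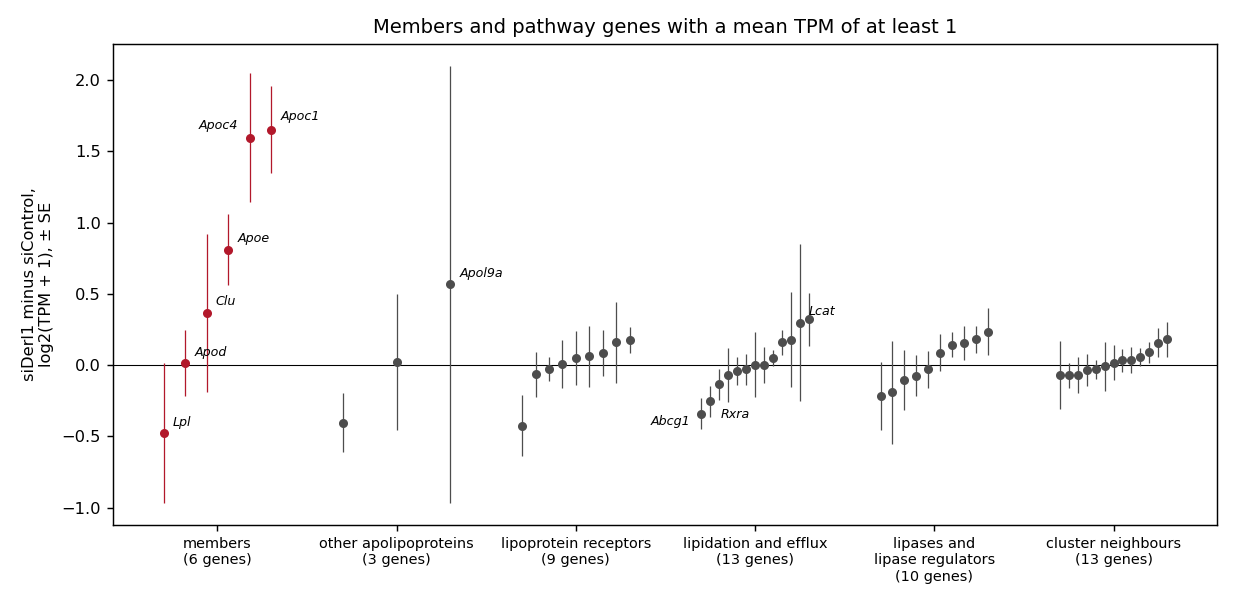
Difference between siDerl1 and siControl on the log2(TPM + 1) scale (vertical axis, ± SE) for the 6 fitted members, in red, and for the fitted genes of 4 pathway lists and the flanking genes, in grey, sorted within each list. *Apoc1*, *Apoc4* and *Apoe* lie at 1.65, 1.60 and 0.81, and the 48 other genes have a median of 0.01.

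The sample numbers were not used to choose the genes, so differences between numbers 1, 2 and 3 were tested, in limma with the siRNA group as a covariate and adjusted over all genes. Of the 6 genes fitted, 3 passed (*Apod*, *Clu* and *Lpl*), beside 10.6% of all genes, and *Apoe*, *Apoc1* and *Apoc4* did not pass (adjusted p = 0.246, 0.308 and 0.154). Of the fitted markers, 6 of 8 for astrocytes, 4 of 7 for stem cells, 2 of 6 for the oligodendrocyte lineage and 0 of 3 for neurons passed. The part of these markers in the levels of the 3 genes was not tested. *Apod* averaged 89.3, 81.9 and 56.5 TPM in numbers 1, 2 and 3 (adjusted p = 0.0143), being lowest in number 3 in both groups. *Clu* averaged 4.35, 1.13 and 0.755 TPM (adjusted p = 0.0146), and numbers 2 and 3 lay 1.44 below number 1 on the log2(TPM + 1) scale. *Lpl* averaged 1.14, 4.36 and 3.68 TPM (adjusted p = 0.0381), lowest in number 1 where *Clu* was highest, with numbers 2 and 3 higher by 1.20 on the log2(TPM + 1) scale.

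These calls rested on few samples and on the settings. With no filter on low values the adjusted p was 0.0719 for *Apod* and 0.0857 for *Lpl*, and with no intensity trend it was 0.148 and 0.115. Without siControl sample 3 the adjusted p was 0.123 for *Apod* and 0.0538 for *Lpl*, and without siDerl1 sample 2 it was 0.0712 for *Lpl*. The adjusted p of *Clu* was 0.0584 without siDerl1 sample 1. Leaving out a sample leaves its number with 1 sample, which is then assumed to vary like the others. Under that assumption *Apoe* passed without either sample numbered 1 (adjusted p = 2.31e-04 without siControl sample 1 and 3.72e-09 without siDerl1 sample 1), each value resting on a single library of that number. *Apoc4* passed without siControl sample 1 (0.0130), siDerl1 sample 1 (0.0190) or siDerl1 sample 3 (0.0475).

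Among the 48 pathway genes, 8 differed between sample numbers, or 16.7%, beside 10.6% of all genes. They were *Apol9a*, *Apol3*, *Lcat*, *Pcsk6*, *Lrpap1*, *Vldlr*, *Lrp1* and *Furin*, and 0 of the 13 flanking genes were among them. With no intensity trend, 2 of the 48 passed. *Lcat*, which esterifies the cholesterol of lipoproteins, was at 120.54, 349.09 and 419.69 TPM in siControl samples 1, 2 and 3 and at 168.52, 369.31 and 527.79 TPM in siDerl1 samples 1, 2 and 3 (adjusted p = 1.06e-05). *Pcsk6*, a proprotein convertase, was at 49.85, 112.27 and 120.56 TPM in siControl and at 52.89, 93.92 and 90.86 TPM in siDerl1 (adjusted p = 7.23e-04). Both were lowest in the samples numbered 1, as *Lpl* was. *Apol9a*, an intracellular apolipoprotein L, was at 3.89, 59.71 and 52.73 TPM in siControl and at 2.6, 124.37 and 113.77 TPM in siDerl1 (adjusted p = 4.90e-05). In numbers 2 and 3 alone, *Apol9a* was higher in siDerl1 by 1.07 ± 0.09 (SE) on the log2(TPM + 1) scale, while number 1 went the other way. It was the only pathway gene to pass there (adjusted p = 0.00545, limma), where 35 of all genes passed. The interferon response genes given below were in sum also lowest in number 1 and higher in siDerl1 in numbers 2 and 3. Their relation to *Apol9a* was not tested. Reads of near-identical L apolipoproteins can be split between copies, so the level of *Apol9a* is uncertain.

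**Figure D4:**
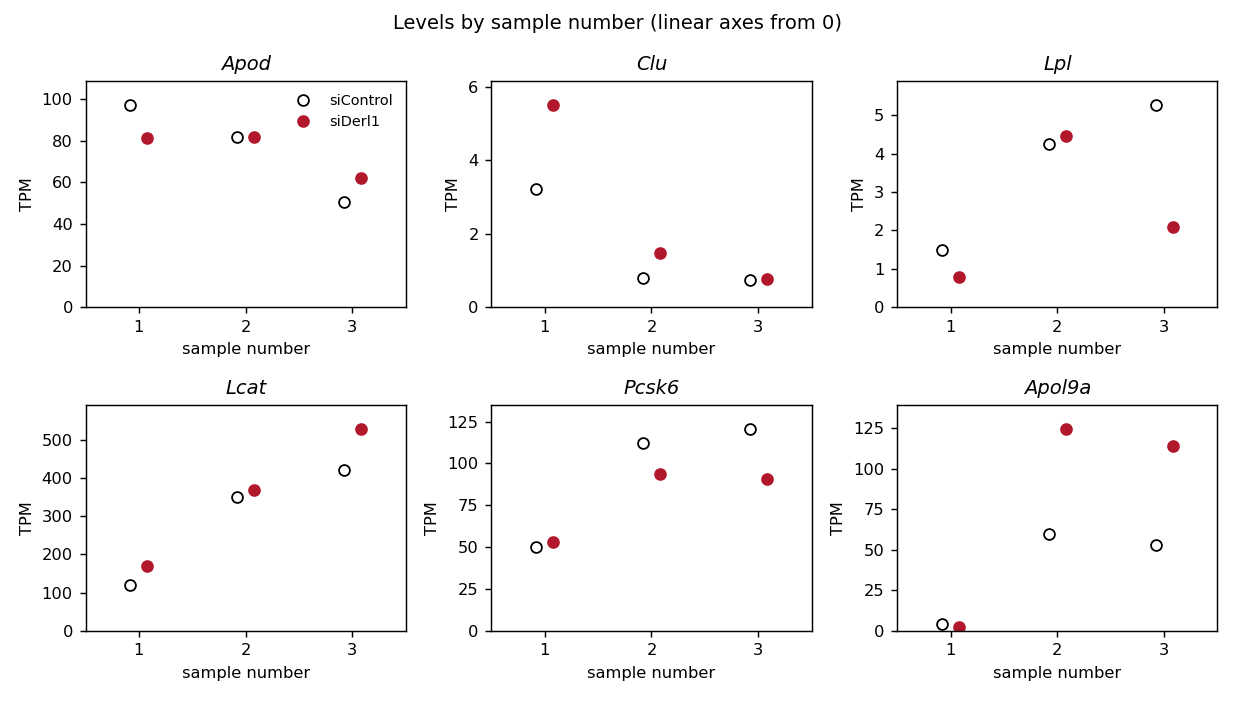
Level in TPM (vertical axis, linear from 0) by sample number (horizontal axis) of 3 members and 3 pathway genes that differed between numbers. Open points are siControl and red points siDerl1 samples. *Clu* is highest in number 1, and *Lpl*, *Lcat*, *Pcsk6* and *Apol9a* are lowest there.

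The genes whose levels ran most like those of *Apoc1* and *Apoc4* were ranked by Pearson's r of log2(TPM + 1) over the 6 samples among 10330 genes. These r values describe the 6 samples and share the same libraries and the same group difference. For *Apoc1* they were *Ptn* (r = 0.996), *Ceacam1* (0.990), *Nudt16* (0.981), *Slc7a8* (0.980) and *Tpt1* (0.976). *Ptn*, which encodes the secreted growth factor pleiotrophin, was at 325.91, 350.69 and 354.82 TPM in siControl samples 1, 2 and 3 and at 397.36, 419.44 and 414.14 TPM in siDerl1 samples 1, 2 and 3, a far smaller relative gap than that of *Apoc1*. For *Apoc4* they were *Piga* (r = 0.984), *Rab3d* (0.981), *Gga3* (0.980), *Acadsb* (0.976) and *Pex5* (0.966). *Piga*, an enzyme of GPI anchor synthesis, was at 2.03, 2.96 and 1.09 TPM in siControl and at 3.95, 6.45 and 5.29 TPM in siDerl1, so that it had its lowest value in the sample where *Apoc4* was listed at 0. No member of the set was among either 5. Among the members themselves r was 0.909 for *Apoe* with *Apoc1*, 0.711 for *Apoc1* with *Apoc4*, 0.406 for *Apoe* with *Apoc4* and −0.830 for *Clu* with *Lpl*.

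*Apoe* and *Apoc1* are also expressed by microglia, macrophages and astrocytes, so markers of these cells are given beside them. Of 13 microglia and macrophage markers, 12 were under 1 TPM in every sample, and *C1qa*, *C1qb*, *C1qc*, *Tyrobp* and *Cx3cr1* were listed at 0 in all 6. The exception, *P2ry12*, was between 3.48 and 5.41 TPM. The list summed to 4.15 to 4.86 TPM in siControl and to 3.80 to 6.24 TPM in siDerl1. The microglial lipoprotein receptor *Trem2* was listed at 0 in every sample too.

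Of 11 astrocyte markers, 8 were fitted, with 6 higher and 2 lower in siDerl1, a median difference of 0.16 on the log2(TPM + 1) scale and *Aqp4* under 1 TPM in every sample. The list summed to 1583 to 1798 TPM in siControl and to 1801 to 1839 TPM in siDerl1. Of the 8, the groups did not overlap for 1 (*Aldoc*, siDerl1 higher), beside 5.09% of all genes. *Gfap*, the intermediate filament of astrocytes and quiescent NSCs, was at 47.01, 27.74 and 28.88 TPM in siControl samples 1, 2 and 3 and at 66.28, 47.51 and 45.32 TPM in siDerl1 samples 1, 2 and 3. It did not pass in the test without the block (adjusted p = 0.704, limma) and passed with it (0.0219), but not with the block and no intensity trend (0.229) or no filter (0.111). *Aldoc*, an astrocytic glycolytic enzyme, averaged 661 ± 41.7 and 788 ± 67.5 TPM (SD, n = 3 each; adjusted p = 0.704, limma). Most of the gap between the summed levels lay in *Aldoc*. *S100b* (means of 532 and 540 TPM) and *Fgfr3* (336 and 333 TPM) were level, and *Slc1a3* (72.9 and 65.7 TPM) was lower in siDerl1 in every pair. The part of these markers in the levels of *Apoe*, *Apoc1* and *Apoc4* was not tested.

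A list of genes that lipid-laden phagocytes express was read beside the cluster; *Gpnmb* in it was known to be higher from earlier results of these data. Of 16 such genes listed, 9 were fitted, 4 higher and 5 lower. At an unadjusted p under 0.05 in limma, 2 were higher (*Gpnmb* and *Ctsl*) and 0 lower, beside 276 higher and 416 lower of all 10331 genes. After adjustment 0 passed. *Gpnmb*, a lysosomal glycoprotein, was at 4.33, 3.17 and 4.16 TPM in siControl samples 1, 2 and 3 and at 21.32, 7.46 and 7.26 TPM in siDerl1 samples 1, 2 and 3 (difference 1.26 ± 0.38 (SE) on the log2(TPM + 1) scale, adjusted p = 0.704, limma). Its largest gap was in number 1, as for *Apoe*. *Ctsl*, a lysosomal protease, averaged 142 ± 13.7 and 175 ± 14.8 TPM (SD, n = 3 each; adjusted p = 0.704, limma). The most abundant genes of the list, *Cd63* and *Fabp5*, had groups that overlapped.

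Interferon response genes, known from earlier results to differ by sample number, were low in both samples numbered 1. The 16 genes of this list summed to 174 and 176 TPM in the siControl and siDerl1 samples numbered 1, to 1170 and 1171 TPM in siControl samples 2 and 3, and to 2126 and 2016 TPM in siDerl1 samples 2 and 3. The list was chosen with this difference known, so it is a description. All 16 were higher in siDerl1 by estimate, but the groups overlapped for each of them. In number 1, *Isg15*, *Rsad2*, *Stat2*, *Ifih1* and *Ddx58* were lower in siDerl1. Of the 16, 0 passed in limma without the block and 5 with it, beside 0% and 0.552% of all genes. These 5 did not pass with the block and no intensity trend (adjusted p from 0.152 to 0.255) or with the block and no filter (0.104 to 0.188). The part of the interferon genes in the levels of the 7 genes, between siRNA groups or between numbers, was not tested.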

How the data were processed

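RNA-seq of 3 siControl and 3 siDerl1 samples was analysed from the processed tables. Per the sources, reads were trimmed (Trimmomatic 0.39), aligned to the rn6 assembly (STAR 2.7.3a) and quantified per gene (RSEM 1.3.2). The values the authors deposited are TPM, which were used as they are. The sequencing depth cannot be read from TPM, so it is unknown, and neither counting intervals nor a count test could be used. The submitters' processing notes also name edgeR (3.28.1), which was not used here.

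Groups and sample numbers came from the sample titles. The 7 genes were matched by symbol. They, and the lists beside them, were chosen with earlier results of these data known. Groups were compared two-sided with limma (version 3.58.1, R 4.3.3). Linear models were fitted to log2(TPM + 1) and moderated by eBayes with an intensity trend. Genes averaging at least 1 TPM over the 6 samples entered (10331), and p-values were adjusted by Benjamini-Hochberg over all of them. No p is given for the 7 genes between siRNA groups. Sample numbers were compared with limma's moderated F test, with the siRNA group as covariate. The scripts were tested on simulated data.

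Named genes were the 7 members, *Derl1*, in each list up to 3 genes with an unadjusted p under 0.05 and the 2 most abundant, the nearest flanking gene on each side, the 5 genes most like *Apoc1* and *Apoc4*, and abundant markers. Not every gene selected is described. Genes named outside this rule, such as markers and pathway genes listed at or near 0, *Apoa5*, *Apom*, *Abca1*, *Abca2*, *Abca5*, *Slc1a3* and *Ppp1r37*, were chosen after their values were seen. Gene order and promoters came from RefSeq tables of GRCr8, in which 16330 of the rows matched by identifier. Of the 17315 rows, 1048 carried several identifiers.

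Deviations from the group means correlated between samples of equal number at 0.70, 0.35 and 0.51 for numbers 1, 2 and 3, across genes, which are not independent replicates. For unequal numbers r was 0.34 (siControl 2, siDerl1 3) and 0.25 (siControl 3, siDerl1 2), and it lay between −0.59 and −0.41 where number 1 was involved. Every equal-number r was above 0.1, so differences are given by pair and the number was used as a block in a further setting. The main fit of siDerl1 against siControl did not use the block. Numbers 2 and 3 were hardly told apart, and the sources name no batch or day that equal numbers share. Identical values made up at most 0.596% of expressed genes in any pair of samples, so none was a duplicate.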

Additional observations from a re-analysis of the deposited data

How the results depend on the processing

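The differences between siRNA groups of *Apoe*, *Apoc1* and *Apoc4* had a direction that the choice of genes or their separate groups fixed, so only their size is given. When each sample was left out in turn, the log2 difference lay between 0.53 and 1.05 for *Apoe*, 1.35 and 1.84 for *Apoc1*, 1.09 and 1.98 for *Apoc4* and −0.88 and −0.08 for *Lpl*, and changed sign for *Apod* (−0.25 to 0.21) and *Clu* (−0.18 to 0.78). With a pseudocount of 0.1 it was 3.08 for *Apoc1* and 2.84 for *Apoc4*. A mean TPM of at least 5 removed *Apoc1*, *Apoc4*, *Clu* and *Lpl* from the fit. Median-of-ratios factors lay between 0.990 and 1.02.

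Over all genes, 0 passed for siDerl1 against siControl in limma (692 at an unadjusted p under 0.05), and 0 with any sample left out. With the sample number as a replicate block 57 passed, with the block but no filter 2, with the block but no intensity trend 0, and in numbers 2 and 3 only 35, which included 1 pathway gene (*Apol9a*). The combined block settings and the restriction to numbers 2 and 3 were chosen after seeing the data. No pathway gene passed with the block or with any sample left out (0 to 0). Genes past a ratio of mean TPM above 1.5 or below 0.8 with an unadjusted p under 0.05 numbered 228, against 366 with no filter, 437 with the block, 482 with the block and no intensity trend, 603 with the block and no filter, and 197 to 350 with a sample left out (350 without siControl sample 1). Apart from *Derl1*, *Gfap* and 5 interferon response genes, the block changed no call of a gene or list given here. None of these block calls was kept with the block and no intensity trend, nor with the block and no filter.

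Across sample numbers 1092 genes passed, against 591 with no filter, 252 with no intensity trend and 612 to 1672 with a sample left out (612 without siDerl1 sample 3, 1672 without siControl sample 1). Of the members 3 passed, against 1 with no filter, 1 with a mean TPM of at least 5, 1 with no intensity trend and 1 to 5 with a sample left out (1 without siControl sample 3, 5 without siControl sample 1). Of the pathway genes 8 passed, against 2 with no intensity trend and 5 to 12 with a sample left out. *Apod* had an adjusted p of 0.0719 with no filter and 0.148 with no intensity trend, and *Lpl* 0.0857 and 0.115. The cause of these shifts was not tested.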
